A study of Mus musculus with 6 samples.

Results

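NF-kB is a family of dimeric transcription factors, and its 5 subunit genes and 5 of its inhibitor genes were compared between RAW264.7 mouse macrophage-like cells that overexpress the nuclear receptor NUR77 and cells of a GFP control line. The 10 genes were chosen by name, with earlier results of these data known. They are Rela, Rel, Relb, Nfkb1 and Nfkb2 for the subunits and Nfkbia, Nfkbib, Nfkbie, Nfkbiz and Tnfaip3 for the inhibitors. All 10 were found among the 23154 Ensembl genes of the deposited table. The NUR77 group was 3 dishes of a stable line with the doxycycline-inducible construct pINDUCER20b-HA-NUR77. The GFP group was 3 dishes of a stable line with pINDUCER20b-GFP. Dishes of both lines were seeded 24 hours before 1 µg/mL doxycycline was added and were kept in it for 18 hours, and the labels name no inflammatory stimulus. Each group is therefore 1 stable line, so a difference between the lines and an effect of the transgene cannot be told apart. Nothing in the labels places the dishes in separate experiments, and each p-value rests on dish-to-dish spread within a line, which may be technical. In these bulk samples, fewer cells of a type and less RNA per cell also cannot be told apart.

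In resting cells, NF-kB dimers are held in the cytoplasm by IkB proteins. Signals from Toll-like and cytokine receptors activate the IkB kinase complex, which marks IkB for degradation and frees the dimers to enter the nucleus (the canonical pathway). A slower, non-canonical pathway runs through the kinase NIK, which drives the processing of p100 so that RelB dimers are released. In macrophages NF-kB drives many cytokine and chemokine genes, and it also drives genes of its own inhibitors, which closes a feedback loop.

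The start sites of 4 genes are shown, those with the largest rises among the 5 whose RefSeq promoter windows hold a kB motif, the DNA element that NF-kB dimers bind. Each line gives the 150 bases before a RefSeq transcription start on GRCm38.p6 (mm10), 5′ to 3′, with kB matches in capitals.
Nfkbia (chr12:55492648-55492797, minus strand): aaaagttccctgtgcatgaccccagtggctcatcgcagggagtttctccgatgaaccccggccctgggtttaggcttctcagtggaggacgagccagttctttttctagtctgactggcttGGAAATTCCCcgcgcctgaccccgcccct
Nfkb2 (chr19:46304587-46304736, plus strand): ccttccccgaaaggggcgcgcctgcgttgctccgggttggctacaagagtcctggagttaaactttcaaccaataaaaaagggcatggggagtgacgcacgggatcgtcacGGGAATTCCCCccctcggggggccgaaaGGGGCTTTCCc
Rel (chr11:23770970-23771119, minus strand): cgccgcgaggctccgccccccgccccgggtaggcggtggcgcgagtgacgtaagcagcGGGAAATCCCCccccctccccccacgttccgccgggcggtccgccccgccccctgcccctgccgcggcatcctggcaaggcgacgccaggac
Tnfaip3 (chr10:19015411-19015560, minus strand): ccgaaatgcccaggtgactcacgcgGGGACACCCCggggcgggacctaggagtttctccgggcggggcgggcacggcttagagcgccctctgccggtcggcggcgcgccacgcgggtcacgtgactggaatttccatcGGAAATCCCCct
The Nfkb2, Rel and Tnfaip3 stretches show matches that start 39 and 11 bases, 92 bases, and 125 and 12 bases before the start, and the Nfkbia match starts 29 bases before it. In Nfkb2 and Rel, the longer run of capitals is a pair of overlapping matches. GENCODE transcripts of Nfkb2 and Tnfaip3 start farther upstream than the RefSeq starts used here. The stretches shown for these genes lie within the annotated gene.

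The kB motif was searched on both strands in windows from 250 bases before to 50 bases after each RefSeq start. Windows were found for 7 of the 10 genes, and none were used for Relb, Nfkb1 and Nfkbiz. Nfkb2 had 3 windows and Tnfaip3 had 2, and window 1 of each is shown above. A match in any window was present in 5 of the 7 genes, namely Rel, Nfkb2, Nfkbia, Nfkbie and Tnfaip3. It was present in 5.14% of all 27025 genes with a window, and in 4.51% of all windows. A gene with more windows has more room for a match, and window 2 of Tnfaip3 held none. The windows of Rela and Nfkbib held no kB match. The NBRE, AAAGGTCA, the element that NR4A receptors such as NUR77 bind as monomers, was found in the windows of 0 of the 7 genes and in 1.70% of all genes. With a share this low over all genes, 0 of 7 is not a result about these genes. A match describes the sequence and does not show binding.

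Levels are given as normalized reads, which sum to 10000000 in each library as deposited, and depth before scaling was 11199468 to 15929487 reads per library. Nr4a1, which encodes NUR77, had 288, 314 and 297 normalized reads in the NUR77 dishes and 170, 148 and 161 in the GFP dishes (log2 fold change 0.90, limma adjusted p = 5.5e-08). Reads of the transgene and of the endogenous gene are not separated in this value. Of 10 macrophage markers, all were detected, 7 fell, 1 rose and 2 were not called (28.3% of all tested genes fell and 38.4% rose), and their summed level was 28797 to 30458 in NUR77 dishes against 77768 to 79184 in GFP dishes. The largest falls were those of Mpeg1 (log2 fold change -4.03) and Lyz2 (-3.39), and the marker that rose was Itgam (1.18). The pan-leukocyte gene Ptprc and the myeloid factor gene Spi1 were the 2 not called. Markers of T cells and epithelium were at or near 0 except Lck, and of the B cell markers only Cd79b exceeded 10 normalized reads, in the NUR77 dishes. NUR77 replicate 1 stood apart with a summed level of 185 for 8 skeletal muscle markers and 93.8 for 6 fibroblast markers, against 37.3 to 46.0 for muscle and 17.6 to 33.4 for fibroblast markers in the other libraries. The part of these markers in the results was not tested, but every member call below was the same without NUR77 replicate 1.

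The NF-kB genes rose together with the exception of Rela. By limma, 9 of the 10 rose and 0 fell at an adjusted p under 0.05. Of the 11201 tested genes 66.7% were called, with 38.4% that rose and 28.3% that fell. All 10 passed the filter for testing, a mean of 10 or more normalized reads. A rise of 2-fold or more was called in 6 of the 10, namely Rel, Nfkb1, Nfkb2, Nfkbia, Nfkbiz and Tnfaip3, and in 7.68% of all tested genes; Nfkb1, Relb and Nfkbie lie near that limit and cross it under some alternatives. The median log2 fold change was 1.23 over the 10 genes and 0.06 over all tested genes. In 9 of the 10 the values of the lines did not overlap with NUR77 higher, as in 40.3% of all tested genes. Each log2 fold change sets NUR77 over GFP after 1 was added to the normalized reads, which understates changes of low genes. It is given with limma's standard error (SE) and a p adjusted over all tested genes by the Benjamini-Hochberg method.

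**Figure D1:**
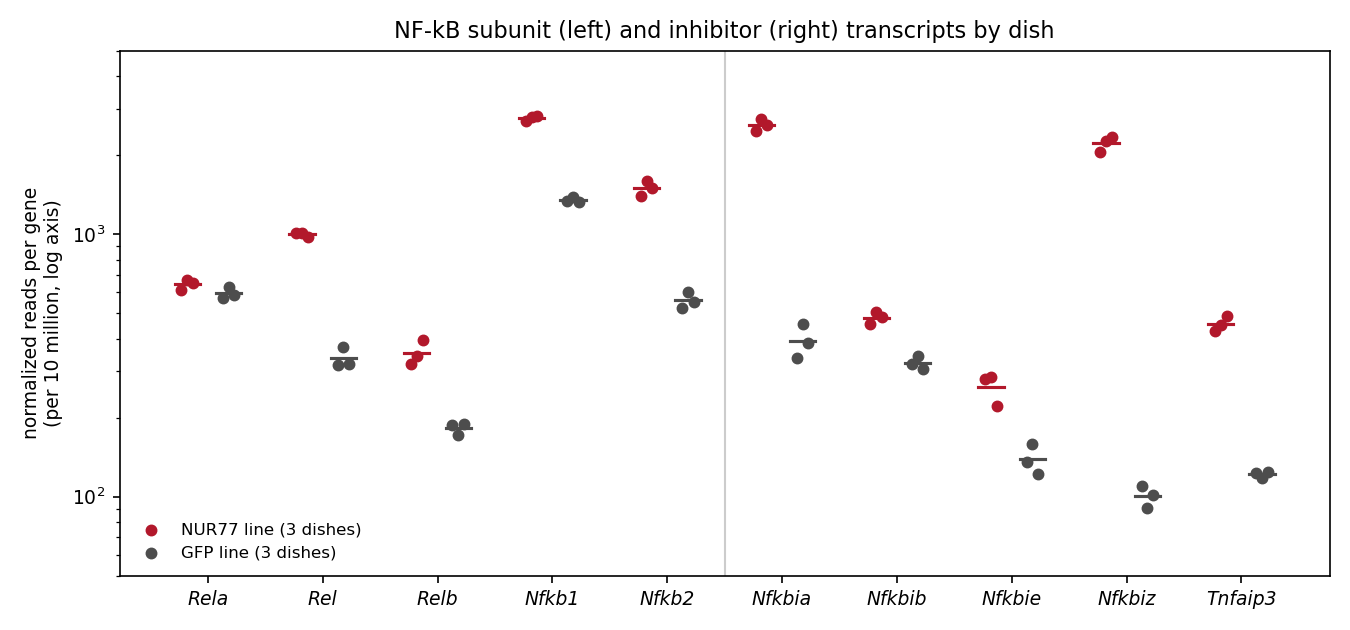
Normalized reads per 10000000 (log axis) of the 5 subunit and 5 inhibitor genes in each dish, NUR77 dishes in red and GFP dishes in grey, with a bar at the mean of 3. The red and grey points overlap in Rela, at 615 to 669 in NUR77 dishes and 571 to 630.3 in GFP dishes, and are apart in the other 9 genes.

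Rela encodes p65, the subunit that carries most transcriptional activation in the canonical pathway. Its level (ENSMUSG00000024927, chromosome 19, 5637483 to 5648130, plus strand, mm10) was 615, 669 and 652 normalized reads in the NUR77 dishes and 571, 630.3 and 587 in the GFP dishes. The ranges overlapped, and the difference was not called (log2 fold change 0.11, SE 0.06, adjusted p = 0.11). Its 95% interval, -0.01 to 0.24, holds no change as large as the rise of any other member. Of all tested genes, 79.4% had a larger absolute change than Rela.

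Rel, which encodes c-Rel, a subunit of lymphoid and myeloid cells, was the subunit with the largest rise. It (ENSMUSG00000020275, chromosome 11, 23736847 to 23770970, minus strand) was measured at 1008, 1012 and 974 normalized reads in NUR77 dishes and at 318, 372 and 320.3 in GFP dishes. The lowest NUR77 dish was well above the highest GFP dish, at a mean ratio of 2.96 (log2 fold change 1.57, SE 0.07, adjusted p = 2.2e-12).

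Relb encodes RelB, the activating partner in the non-canonical pathway. It (ENSMUSG00000002983, chromosome 7, 19606217 to 19629438, minus strand) had 321, 345 and 394 normalized reads in NUR77 dishes and 188, 171 and 189 in GFP dishes. All NUR77 dishes were higher, with a wider spread than the GFP dishes, and the rise was 1.93-fold (log2 fold change 0.94, SE 0.09, adjusted p = 5.2e-08).

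Nfkb1 and Nfkb2 encode p105 and p100, precursors that are processed to the DNA-binding subunits p50 and p52 and that hold dimers back while unprocessed. Nfkb1 (ENSMUSG00000028163, chromosome 3, 135584655 to 135691547, minus strand) had 2704, 2808 and 2824 normalized reads in NUR77 dishes and 1333, 1384 and 1324 in GFP dishes. The values varied by 2.35% (coefficient of variation) among NUR77 dishes and by 2.40% among GFP dishes, and the rise was 2.06-fold (log2 fold change 1.04, SE 0.05, adjusted p = 7.2e-12). Nfkb2 (ENSMUSG00000025225, chromosome 19, 46304320 to 46312385, plus strand) had 1396, 1600.2 and 1493 normalized reads in NUR77 dishes and 523, 603 and 554 in GFP dishes. It rose 2.67-fold (log2 fold change 1.42, SE 0.07, adjusted p = 5.7e-12), and its 95% interval, 1.28 to 1.55, lay above that of Nfkb1, 0.94 to 1.15.

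Nfkbia encodes IkB alpha, the inhibitor that retains p65 dimers in the cytoplasm and is itself a classical NF-kB target. It (ENSMUSG00000021025, chromosome 12, 55489410 to 55492647, minus strand) had 2483, 2739.9 and 2617 normalized reads in NUR77 dishes and 338, 453 and 384 in GFP dishes. No values overlapped, and Nfkbia rose 6.67-fold (log2 fold change 2.74, SE 0.09, adjusted p = 1.7e-11). The GFP dishes varied by 14.8% (coefficient of variation), the widest spread of the 10 genes in that line, against 4.91% in the NUR77 dishes.

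Nfkbib and Nfkbie encode IkB beta and IkB epsilon, the remaining classical cytoplasmic inhibitors. Nfkbib (ENSMUSG00000030595, chromosome 7, 28758251 to 28767512, minus strand) had 455, 504 and 485 normalized reads in NUR77 dishes and 319.9, 344 and 305 in GFP dishes, the smallest rise among the called members (log2 fold change 0.57, SE 0.07, adjusted p = 1.7e-06). Nfkbie (ENSMUSG00000023947, chromosome 17, 45555703 to 45563169, plus strand) had 280.4, 285 and 222 normalized reads in NUR77 dishes and 136, 158 and 122 in GFP dishes (log2 fold change 0.91, SE 0.11, adjusted p = 2.1e-06). Each was higher in all NUR77 dishes, and replicate 3 had the lowest Nfkbie value within each line.

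Nfkbiz encodes IkB zeta, an atypical nuclear IkB protein that is induced by Toll-like receptor signals and acts with p50 on secondary response genes such as Il6. It (ENSMUSG00000035356, chromosome 16, 55811375 to 55838899, minus strand) had 2061, 2273 and 2350.2 normalized reads in NUR77 dishes and 109, 90.4 and 101.3 in GFP dishes. The lowest NUR77 dish was far above every GFP dish. This was the largest change of the 10, a 22.2-fold rise (log2 fold change 4.46, SE 0.08, adjusted p = 3.2e-17), and 1.11% of all tested genes had a larger one.

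Tnfaip3 encodes A20, a ubiquitin-editing enzyme that shuts off signalling upstream of the IkB kinases. It (ENSMUSG00000019850, chromosome 10, 19000910 to 19015657, minus strand) had 427, 451 and 488 normalized reads in NUR77 dishes and 123, 118 and 124 in GFP dishes. The GFP dishes varied by 2.74% (coefficient of variation), and the rise was 3.73-fold (log2 fold change 1.89, SE 0.08, adjusted p = 2.0e-12).

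**Figure D2:**
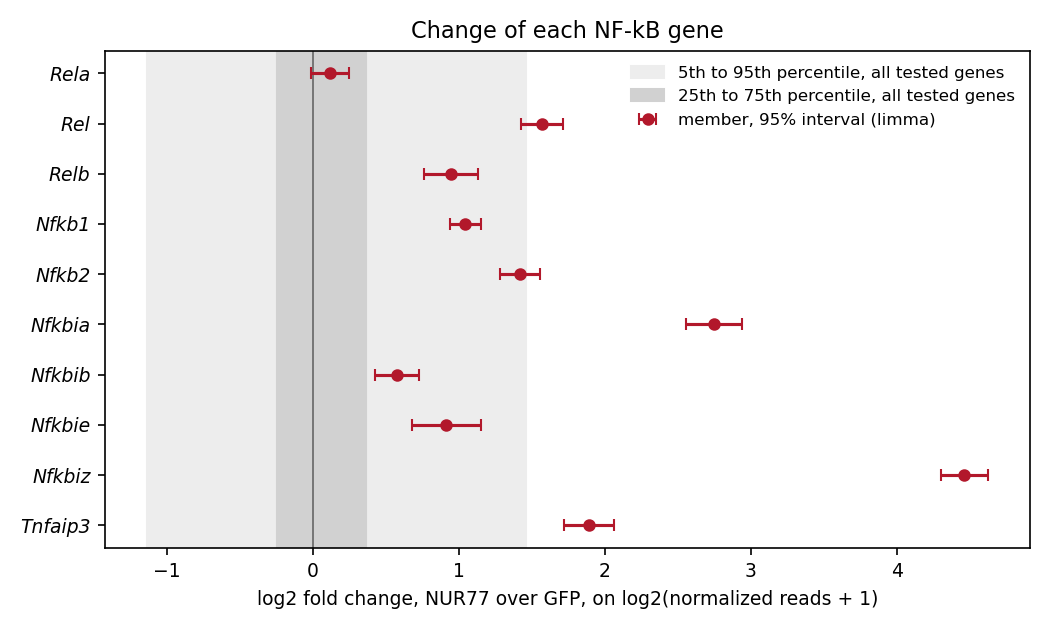
Log2 fold change, NUR77 over GFP, of each NF-kB gene with its 95% interval from limma (3 dishes per line); the dark band runs from the 25th to the 75th percentile of all tested genes, -0.25 to 0.37, and the light band from the 5th to the 95th, -1.14 to 1.46. Rela lies within the dark band at 0.11, and Nfkbia at 2.74, Nfkbiz at 4.46, Tnfaip3 at 1.89 and Rel at 1.57 lie beyond the light band.

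The dishes of a line were not ordered alike in every gene. NUR77 replicate 1 was the lowest NUR77 dish in 8 of the 10 genes, as in 41.1% of all tested genes. GFP replicate 2 was the highest GFP dish in 7 of the 10, as in 35.8% of all tested genes. The exceptions for GFP replicate 2 were Relb, Nfkbiz and Tnfaip3, in which it was the lowest.

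To compare genes with each other, levels were divided by merged exon length, in normalized reads per kilobase (kb). The order depends on this division, and in undivided normalized reads Nfkb1 had the highest mean of the 10 in both lines. In the NUR77 line the order was Nfkbia (1623 per kb), Nfkbiz (444), Nfkb2 (327), Nfkb1 (230.4), Nfkbib (222), Rela (210.1), Rel (134), Relb (91.0), Nfkbie (86.2) and Tnfaip3 (63.0). The dishes of neighbours in this order overlapped for Nfkb1 with Nfkbib, Nfkbib with Rela, and Relb with Nfkbie. In the GFP line it was Nfkbia (243 per kb), Rela (194), Nfkbib (149), Nfkb2 (122), Nfkb1 (112), Relb (47.1), Nfkbie (45.6), Rel (45.1), Nfkbiz (20.0) and Tnfaip3 (16.9). Here Nfkb2 overlapped with Nfkb1, Relb with Nfkbie, and Nfkbie with Rel. Nfkbia was first and Tnfaip3 last in both lines, while Nfkbiz was second in the NUR77 line and ninth in the GFP line.

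Shares of the summed subunit level were computed per dish, with no test. Rela made up 21.2, 21.3 and 21.2% of the summed subunit level per kb in NUR77 dishes and 37.1, 37.6 and 37.2% in GFP dishes. Nfkb2 was the largest part in the NUR77 line at 32.9% ± 1.04, against 23.5% ± 0.683 in the GFP line (SD, n = 3 each). This rank depends on the division by merged exon length, 4584 bases for Nfkb2 and 12061 for Nfkb1. In undivided normalized reads Nfkb1 was the highest subunit in both lines. Its mean was 2778 against 1497 for Nfkb2 in the NUR77 line, and 1347 against 560 in the GFP line. The share of Rel was 13.5% ± 0.673 in the NUR77 line and 8.66% ± 0.409 in the GFP line, and Relb, whose dishes overlapped, was at 9.17% ± 0.805 in the NUR77 line and 9.07% ± 0.855 in the GFP line. Nfkb1 was at 23.2% ± 0.473 in the NUR77 line and 21.5% ± 0.501 in the GFP line. Per kb, Rel was at 0.637 ± 0.0325 of the Rela level in the NUR77 line and 0.232 ± 0.00938 in the GFP line, and Relb at 0.433 ± 0.0387 of it in the NUR77 line and 0.243 ± 0.0247 in the GFP line. The summed level of the 5 subunits was 992 ± 40.0 per kb in the NUR77 line and 520.0 ± 22.6 per kb in the GFP line.

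Among the 3 classical inhibitors, Nfkbia made up 83.6, 83.9 and 84.6% of the summed level per kb in NUR77 dishes and 52.2, 57.2 and 56.9% in GFP dishes. Nfkbib made up 11.5% ± 0.124 in the NUR77 line and 34.2% ± 2.28 in the GFP line. The classical inhibitors summed to 1.95, 1.98 and 1.91 times the subunits per kb in NUR77 dishes and to 0.801, 0.902 and 0.817 times in GFP dishes. In NUR77 dishes this order depends on the division by exon length. There, in undivided normalized reads, even all 5 inhibitors, the 3 classical ones included, summed to less than the subunits. The sums were 5707, 6252 and 6161 for the inhibitors, against 6045, 6434 and 6337 for the subunits. In GFP dishes the inhibitors were lower both ways, with all 5 at 1026, 1164 and 1037 undivided and the subunits at 2934, 3160 and 2973. These ratios and sums are of transcript levels and say nothing of protein.

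**Figure D3:**
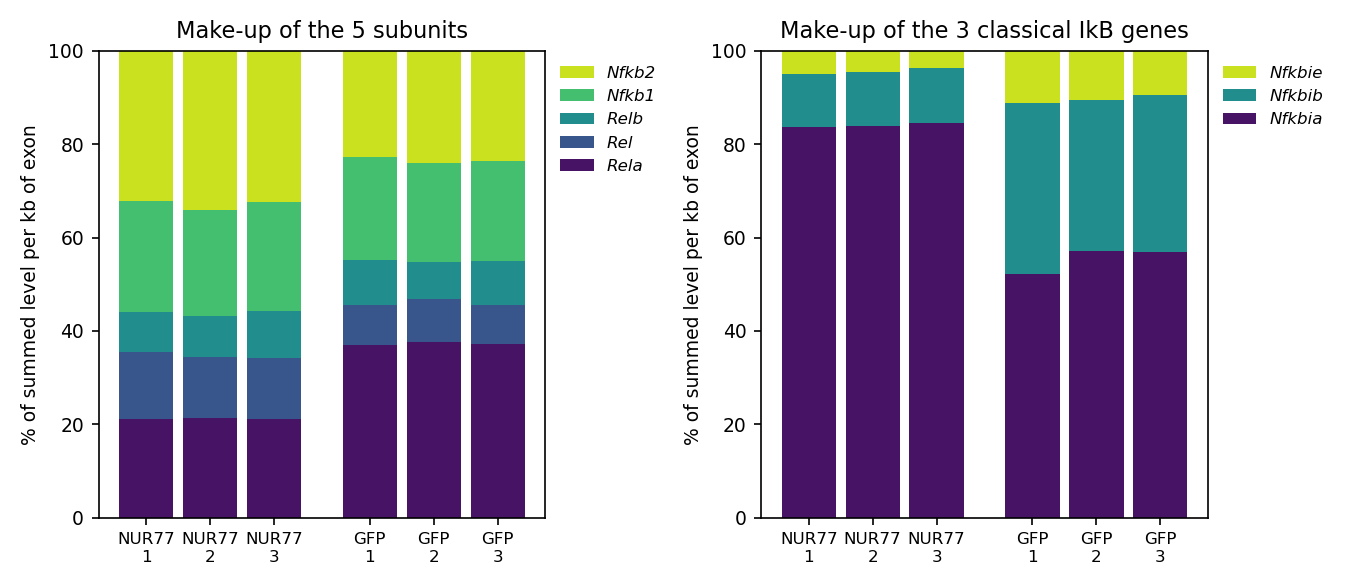
Share of each gene in the summed level per kb of exon, in percent, of the 5 subunits (left) and of the 3 classical IkB genes (right), 1 bar per dish with NUR77 dishes left of GFP dishes. Rela is 21.2 to 21.3% in NUR77 dishes and 37.1 to 37.6% in GFP dishes, and Nfkbia is 83.6 to 84.6% in NUR77 dishes and 52.2 to 57.2% in GFP dishes.

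Of 28 genes of kinases and adaptors that act upstream of NF-kB, 27 were tested, 13 rose, 6 fell and 8 were not called, with a median log2 fold change of 0.13. The list was not split by whether a gene's product activates or restrains NF-kB. The share called, 70.4%, was near the 66.7% of all tested genes. The kinase subunit genes Chuk and Ikbkb, which encode IKK alpha and IKK beta, were not called. Chuk had 1172, 1139 and 1212 normalized reads in NUR77 dishes and 1149.8, 1111 and 1144 in GFP dishes (adjusted p = 0.42), and the sign of its difference turned with the scaling. Ikbkb had 808, 809 and 784 normalized reads in NUR77 dishes and 789, 799 and 771 in GFP dishes (adjusted p = 0.69), and its sign turned likewise. Ikbkg, the gene of the regulatory subunit NEMO, fell to 499 ± 7.93 in the NUR77 line, against 692 ± 57.2 in the GFP line (log2 fold change -0.47, adjusted p = 8.4e-06).

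Map3k14, which encodes NIK, the kinase of the non-canonical pathway, had 849, 867 and 757 normalized reads in NUR77 dishes and 213, 203 and 226 in GFP dishes. It rose 3.85-fold (log2 fold change 1.94, SE 0.07, adjusted p = 3.1e-13). Traf1, a receptor adaptor gene that is also a known NF-kB target, had 627 ± 80.6 normalized reads in the NUR77 line and 20.2 ± 0.555 in the GFP line (log2 fold change 4.88, adjusted p = 9.7e-16). Birc3, the gene of the ubiquitin ligase cIAP2, rose by a log2 fold change of 2.22 (adjusted p = 3.1e-14). Ripk2, the gene of the kinase downstream of NOD receptors, rose by 2.19 (adjusted p = 5.8e-15).

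Malt1, a paracaspase gene, was at 554 ± 24.2 in the NUR77 line and 1003 ± 33.2 in the GFP line (log2 fold change -0.86, adjusted p = 8.6e-10). Traf6, a ubiquitin ligase gene of Toll-like receptor signalling, fell as well (-0.59, adjusted p = 2.8e-07). Bcl10, whose product binds the MALT1 protein, rose (0.44, adjusted p = 2.8e-05).

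Of 19 other IkB-like genes and brakes of the pathway, all tested, 12 rose, 3 fell and 4 were not called (median log2 fold change 0.33). The share called was 78.9%, against 66.7% of all tested genes, of which 38.4% rose and 28.3% fell. Bcl3, a nuclear IkB protein gene that partners p50 and p52, had 882, 1050.5 and 965 normalized reads in NUR77 dishes and 46.7, 64.0 and 67.3 in GFP dishes (log2 fold change 4.02, SE 0.12, adjusted p = 2.9e-12). Zc3h12a, which encodes the RNase regnase-1, rose (2.86, adjusted p = 1.5e-14), and so did Tnip1, the gene of an A20-binding protein (2.15, adjusted p = 1.5e-15). Pdlim2, which encodes a nuclear ubiquitin ligase for p65, rose by 0.89 (adjusted p = 2.8e-08). Tnip2 and Tnfaip8l2 fell by 0.20 and 0.23 on the log2 scale (adjusted p = 0.022 and 0.0089); the call of Tnip2 was lost without NUR77 replicate 2 (adjusted p = 0.061), GFP replicate 1 (0.096) or GFP replicate 3 (0.051).

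Of 34 genes commonly cited as NF-kB targets, 30 were tested, 25 rose, 3 fell and 2 were not called, with a median log2 fold change of 1.56. Of all tested genes 38.4% rose and 28.3% fell. Of the 30, 8 had a GFP mean of 4.85 normalized reads or less and reached the filter only through the NUR77 line, and Saa3 reached it only through the GFP line, so these genes had to differ to be tested, and the count and median are descriptions. The 4 largest rises were Ccl22, Lcn2, Il1b and Nos2. Ccl22, Lcn2 and Il1b are among the 8 genes that reached the filter only through the NUR77 line, and Nos2 is not. The chemokine gene Ccl22 had 2630.5, 2126 and 1049 normalized reads in NUR77 dishes and 1.39, 1.26 and 1.31 in GFP dishes. Il1b, the interleukin 1 beta gene, had 338, 339 and 301 in NUR77 dishes and 0.697, 1.26 and 0 in GFP dishes. Lcn2 averaged 1174 ± 61.5 in the NUR77 line and 1.09 ± 0.338 in the GFP line, and Nos2 averaged 1284 ± 57.9 in the NUR77 line and 10.5 ± 4.84 in the GFP line. The 3 falls were Plau, Tnfaip2 and Saa3. Plau, the urokinase gene, had 1717, 1305 and 1358 normalized reads in NUR77 dishes and 8480.5, 7556 and 7498 in GFP dishes (log2 fold change -2.43, adjusted p = 6.0e-09). Tnfaip2 was at 1077 ± 17.0 in the NUR77 line and 3662 ± 142 in the GFP line (-1.76, adjusted p = 1.1e-14). Saa3, an acute-phase gene, was at 2.75 ± 1.57 in the NUR77 line and 20.1 ± 5.03 in the GFP line (-2.55). For Saa3 these values are a description only. The feedback gene Gadd45b had 226 to 253 normalized reads in NUR77 dishes and 236 to 289 in GFP dishes (adjusted p = 0.37).

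**Figure D4:**
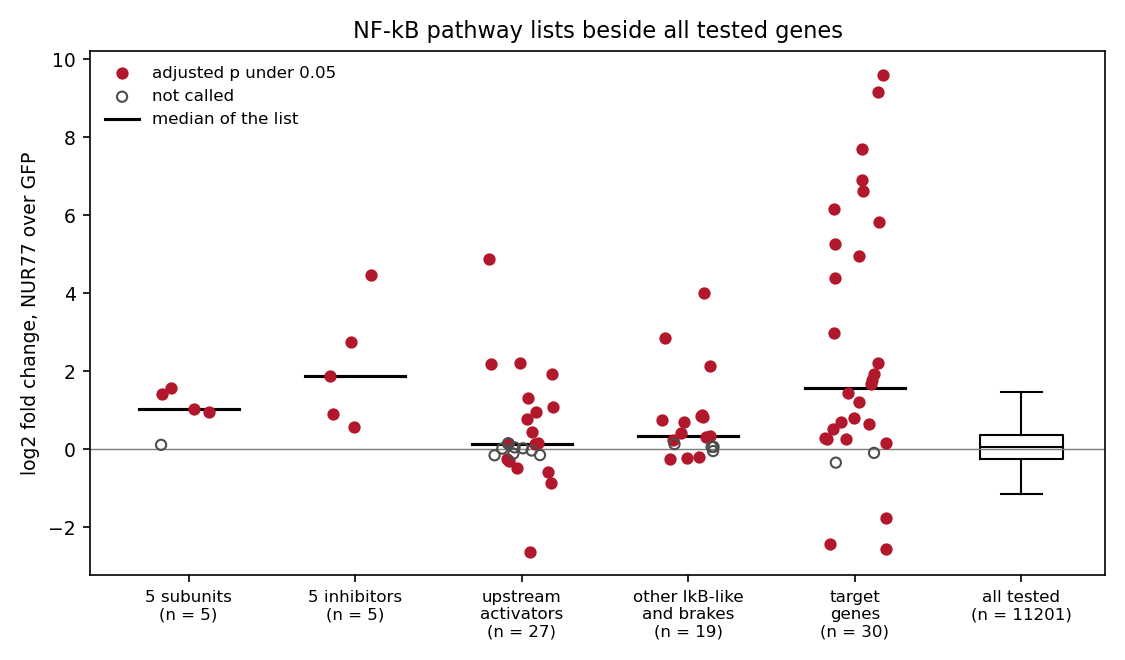
Log2 fold change, NUR77 over GFP, of the tested genes of 5 lists (filled, adjusted p under 0.05; open, not called; bar, median) beside all 11201 tested genes (box, 25th to 75th percentile; whiskers, 5th to 95th). The medians are 1.04 for the subunits, 1.89 for the inhibitors, 0.13 for the upstream genes (labelled upstream activators), 0.33 for the other brakes and 1.56 for the targets. Of the 30 targets, 8 reached the filter only through the NUR77 line and 1 only through the GFP line. These had to differ to be tested, so the target median is a description.

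Each NF-kB gene was set beside the 12 tested genes before it and the 12 after it on its chromosome, which span 0.488 Mb around Rela to 11.5 Mb around Nfkbiz. The median of the neighbours lay between -0.08 (around Rela) and 0.34 (around Relb), below the change of the NF-kB gene itself in all 10 cases. Around Nfkbiz it was 0.18 and around Nfkbia 0.23, and no neighbour of either rose as much as the gene itself. Around Nfkb2 the neighbours ranged from -0.66 to 0.45. Around Relb, the neighbour Bcl3, described above, lies 0.19 Mb away and was at 4.02, and Bcam, Zfp296, Nectin2 and Klc3 in the same stretch were at 2.43, 1.64, 1.57 and 1.22. Each of these 5 neighbours had a larger change than Relb, at 0.94. Relb was not alone in this. Neighbours higher than the member were also found around Rela (up to 2.35), Nfkb1 (1.62), Nfkbib (2.15), Nfkbie (1.70) and Tnfaip3 (2.50).

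**Figure D5:**
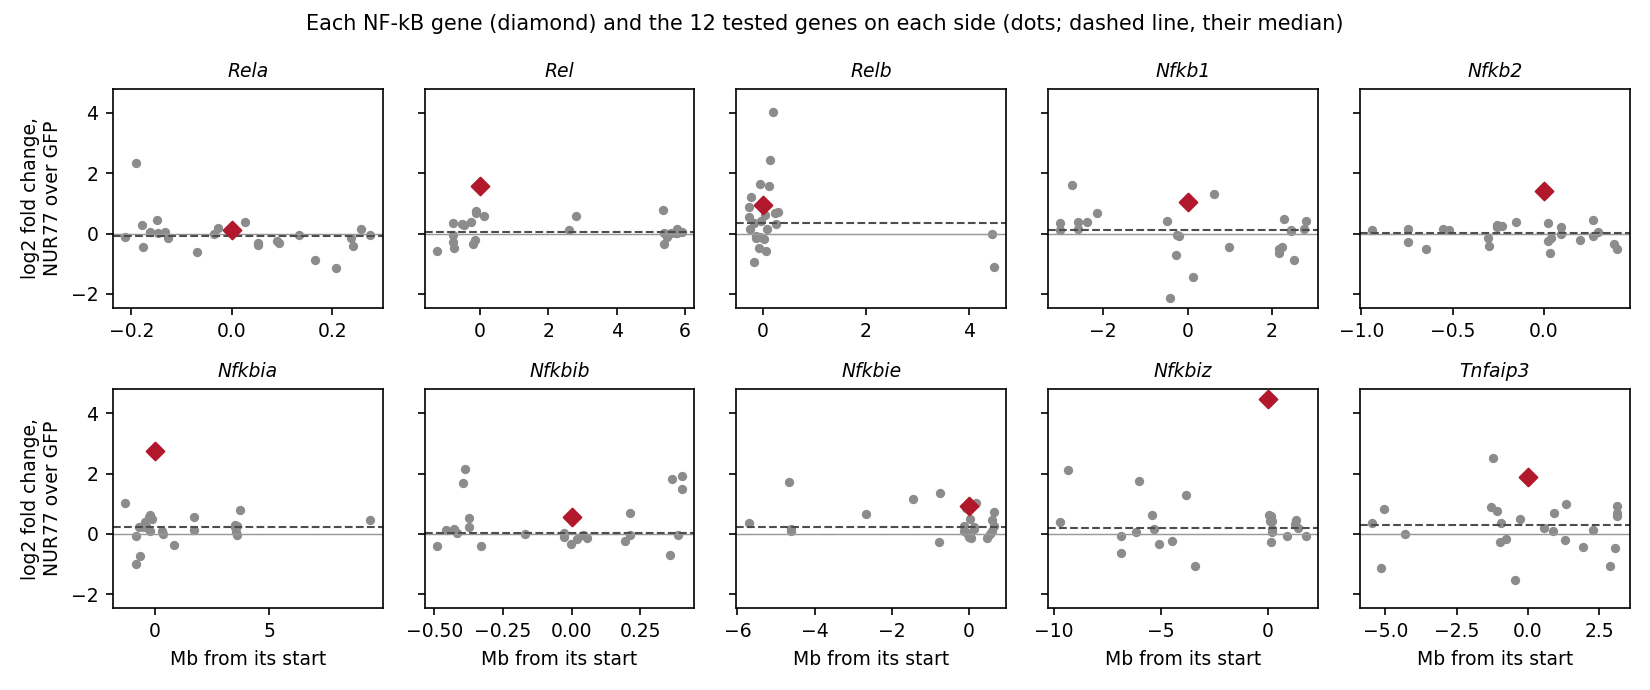
Log2 fold change, NUR77 over GFP, of each NF-kB gene (diamond) and the 12 tested genes on each side of it (dots; dashed line, their median) against distance from the start of the NF-kB gene in Mb. The diamonds of Nfkbiz, Nfkbia, Rel and Nfkb2 stand above all their neighbours. Those of the other genes do not, with neighbours of up to 4.02 around Relb and 2.15 around Nfkbib.

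Some of the genes overlap others in the annotation. Nfkb1 overlaps Gm43430 on the same strand by 3897 bases. Gm43430 is not among the deposited genes, and how reads in this overlap were counted is unknown here. Nfkbib overlaps Sirt2 on the opposite strand by 778 bases, and Sirt2 was at 755 normalized reads in the NUR77 line and 959 in the GFP line. Nfkb2 overlaps Psd on the opposite strand by 299 bases, and Psd was at 21.6 normalized reads in the NUR77 line and 17.4 in the GFP line. The libraries were strand-specific, but how strand was treated in counting is unknown here, so reads of the overlapping ends may be shared or dropped. Sirt2 differed in the direction opposite to Nfkbib.

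The genes whose pattern over the 6 libraries was closest to that of Nfkbiz were Hip1r, Epsti1 and Adora2a, by Euclidean distance between centred log2 values (0.24, 0.26 and 0.29). Hip1r was at 443 ± 59.6 normalized reads in the NUR77 line and 20.7 ± 1.71 in the GFP line, and Epsti1 at 483 ± 22.3 in the NUR77 line and 22.7 ± 1.57 in the GFP line. Adora2a, which encodes an adenosine receptor, had 23.2, 22.3 and 22.3 normalized reads in NUR77 dishes and no read in any GFP dish. It reached the filter through the NUR77 line alone, and its distance depends on the 1 that was added to the reads.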

How the data were processed

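Poly(A) RNA of 6 dishes was sequenced from strand-specific libraries, per the labels' protocols. The authors deposited log2 values per library, without pooling, and TopHat2 2.1, HTSeq and DESeq2 with the mm10 build are named in the submitters' processing notes, with no role given. Undoing log2(value + 1) gave columns that summed to 10000000, and whole reads could be recovered for 100% of values within 0.1 read. Reads are not independent molecules, so depth gives counting error only. Genes were named from GENCODE M21 (GRCm38), which matched 22888 of 23154 identifiers, and promoter windows are from RefSeq (GRCm38.p6).

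limma 3.58.1 in R 4.3.3 was run on log2(normalized reads + 1) with trend and robust moderation, for genes with a mean of 10 or more, without covariates, with Benjamini-Hochberg adjustment over all 11201 tested genes and a threshold of 0.05. The fit was tested on simulated data. The members and lists were chosen with earlier results of these data known. Named genes are the 10 members, Nr4a1, up to 4 largest rises and falls of each pathway list among called genes whose groups did not overlap and whose higher mean reached 50, 4 kinase genes, and the 3 genes most like the most changed member. Bcl10, Saa3, Gadd45b, Ptprc, Spi1, Mpeg1, Lyz2, Itgam, Lck, Cd79b and the overlapping or neighbouring genes were named after their values were seen. A result that the naming rule selects from the upstream list is not reported here. Alternatives were other pseudocounts, filters, scalings and variance models, a replicate block, limma-voom, and each library left out. The 2 planned tests on counts, edgeR and DESeq2, were not run on the recovered reads; limma-voom on those reads was added after seeing the data. Chi-square per degree of freedom between dishes of a line was 2.39 or more, so no dish was a duplicate of another.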

Additional observations from a re-analysis of the deposited data

How the results depend on the processing

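All 10 NF-kB genes kept their direction and their side of the threshold under all 16 alternatives run, namely other pseudocounts (0.5 or 5), a stricter filter (mean of 50) or none, TMM, upper-quartile and median-of-ratios scaling, limma without trend, a replicate block, limma-voom and each library left out in turn. Of the 10, 9 were called each time. Rela came closest to a call without NUR77 replicate 1 (log2 fold change 0.15, adjusted p = 0.051) and was at 0.04 under TMM scaling (adjusted p = 0.58). Nfkbiz ranged from 4.39 to 4.52 and Nfkbia from 2.64 to 2.85; Relb (0.86 to 1.01), Nfkbie (0.83 to 1.03) and Nfkb1 (0.97 to 1.06) lay on both sides of a log2 fold change of 1, and Nfkb1 was under it with TMM (0.97), upper-quartile (0.98) and median-of-ratios scaling (0.99). The planned edgeR and DESeq2 tests were not run; limma-voom was chosen after seeing the data. The number of genes called ranged from 6680 to 8429, and higher calls made up 57.6% of calls in the main test but 48.4% under TMM, which shifted log2 fold changes by -0.07 at the median. The sign of Chuk turned under TMM (-0.025), upper-quartile (-0.014) and median-of-ratios scaling (-0.0084), and that of Ikbkb likewise (-0.049, -0.037 and -0.032); scaling shifts all genes by construction. Over all tested genes, same-numbered dishes of the lines deviated together weakly or not at all (correlations of 0.0016, 0.11 and 0.04). Whether the numbers pair dishes is not known. With the replicate block 7585 genes were called in place of 7475, and Rela was at 0.11 (limma adjusted p = 0.084). The block lowered the SE of Nfkbia from 0.088 to 0.059 and that of Nfkbie from 0.113 to 0.087. That of Nfkb1 did not fall (0.049 in both). Each of the 10 genes had 144 or more reads in every library, and the groups are 3 dishes of 1 line each.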
